A study of Mus musculus with 2 samples.

Results

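Epithelial calcium handling was followed through 7 genes chosen by name: the calbindins Calb1 and S100g, the entry channel Trpv6, the export pumps Atp2b1 and Atp2b4, the sodium-calcium exchanger Slc8a1 and the vitamin D receptor gene Vdr. They were chosen with earlier results of these arrays known, and the contrast between the arrays was part of that choice, so their values are a description. Of the 7 genes, 5 had a probe set under their own name, with 9 probe sets in all, among 12393 genes on the array. Atp2b1 and Atp2b4 were not analysed here. Gene expression was measured in uterine tissue dissected from between the implantation sites of pregnant mice on day 8 of pregnancy. The females were 4 months old and of a mixed background given as C57Bl/6J X OLA129. The control group was 1 array and the Cbs null group, from females homozygous for deficiency of the transsulfuration enzyme cystathionine beta-synthase, was 1 array. The labels state no treatment beyond the dissection, do not say how the Cbs allele was disrupted or what genotype the controls and the embryos had, and do not say whether a sample was 1 animal or a pool.

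Cells that move calcium across an epithelium let it in at the apical membrane, largely through TRPV6 or its relative TRPV5. Calbindins, soluble proteins with EF-hand calcium-binding loops, buffer it and carry it across the cell. Plasma membrane calcium ATPases, encoded by the Atp2b genes, and the sodium-calcium exchanger then move it out at the basolateral membrane. The vitamin D receptor raises several of these genes in intestine and kidney, whereas in the uterus S100g and Trpv6 are known chiefly as genes under the control of estrogen and progesterone. In the mouse uterus both calbindins are known from the luminal and glandular epithelium, where they have been linked to implantation. Slc8a1 is also a gene of muscle cells, which make up much of the uterine wall.

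The upstream sequences of S100g and Trpv6 are shown because these are the 2 genes of the entry and buffering steps for which RefSeq promoter sequence was at hand, and because they stood far apart in their difference between the arrays. Each run is the 250 bases before the annotated start, read 5′ to 3′ on the gene's own strand from RefSeq on GRCm38.p6. Capitals mark every match on either strand to the nuclear receptor core motif AGGTCA and to the forkhead motif TGTTTAC. S100g lies on the minus strand of chromosome X at chrX:162964600-162964849 and Trpv6 on the minus strand of chromosome 6 at chr6:41636406-41636655.
S100g: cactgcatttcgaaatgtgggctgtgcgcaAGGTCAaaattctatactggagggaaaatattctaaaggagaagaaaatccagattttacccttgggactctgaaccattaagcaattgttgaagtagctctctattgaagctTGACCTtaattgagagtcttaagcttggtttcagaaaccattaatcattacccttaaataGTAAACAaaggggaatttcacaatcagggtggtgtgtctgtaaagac
Trpv6: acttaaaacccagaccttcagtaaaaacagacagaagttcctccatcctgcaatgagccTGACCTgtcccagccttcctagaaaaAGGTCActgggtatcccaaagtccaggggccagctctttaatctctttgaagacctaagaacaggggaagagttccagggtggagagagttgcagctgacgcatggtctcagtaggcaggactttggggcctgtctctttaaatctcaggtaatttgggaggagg

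Both windows held 2 matches to AGGTCA, 1 on each strand, a motif found in 4607 of the 32851 promoter windows of this length. In S100g they ended 215 and 102 bases before the start, and in Trpv6 186 and 160 bases before it. The S100g window also held 1 forkhead match, ending 41 bases before the start, a motif found in 3.17% of windows, and the Trpv6 window held 0. The palindromic estrogen response element GGTCANNNTGACC, present in 21 of all windows, was in neither. The direct repeat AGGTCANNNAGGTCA, the consensus form of a vitamin D response element, was in 2 of all windows and likewise in neither. The windows of Slc8a1 and Vdr held 0 matches to any of the 4 motifs. These are matches of letters in a short window and not measured binding sites, and elements farther from the start were outside it.

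The arrays had the same scale, with a median signal of 74.55 in control and 75.6 in Cbs null, and a floor was set at 43.2, the 40th percentile of all signals. Weaker signals were treated as too low to order and raised to it. Ratios against a value below the floor are given as lower bounds. As a check of the labelled tissue, the homeobox gene Hoxa11 of the uterus read 1081.7 and 1077.0, and the floor was exceeded on both arrays by all 11 smooth muscle markers, all 10 stroma markers and 16 of 17 epithelium markers. These readings do not tell uterus from every other organ, or the tissue between implantation sites from the sites themselves. The decidual markers Tdo2 and Prl8a2 were high on the control array alone, with Tdo2 at 685.3 and 27.4, lower in Cbs null by at least 15.9-fold, and Prl8a2 at 424.4 and 5.8, lower by at least 9.82-fold. Cbs read 79.8 in control and 42.6 in Cbs null in its brighter probe set, lower by at least 1.85-fold, and 39.8 and 25.1 in the other, below the floor on both arrays. With 1 array per group no difference has a replicate check, and no test was run. As a measure of error within these arrays, the log2 ratios of 2 probe sets of the same gene differed with an SD per probe set of 0.26 where the weakest signal was under 4 times the floor, and 0.15 where all were brighter. That error leaves out the variation between mice.

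The calbindins were the genes of this group that differed by 2-fold or more. Calb1, which encodes the larger calbindin, with several EF-hands, read 28.3 in control and 333.9 in Cbs null. The control reading was thus below the floor and the Cbs null reading 7.73 times the floor, which makes Calb1 at least 7.73-fold higher. Among 226 genes that were below the floor in control and above it in Cbs null, that bound was the highest. All control readings in that set were raised to the floor, so the order follows the Cbs null signal alone. Calb1 entered the set only through the array where it was high, so the rank is a description. The other Calb1 probe set read 7.8 and 37.4. It stayed below the floor on both arrays, so it gives no fold and no direction.

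S100g encodes the small calbindin, a member of the S100 family and not a close relative of Calb1. Its single probe set read 419.3 in control and 1690.9 in Cbs null, so unlike Calb1 it was well measured in both samples, at 9.71 and 39.1 times the floor. The log2 ratio was 2.01, or 4.03-fold higher, with a technical SD of 0.15 for probe sets of this brightness. Ranked by log2 ratio, S100g stood 8th from the top of the 7942 genes that exceeded the floor in each sample. No other probe set of S100g was available as a check.

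**Figure D1:**
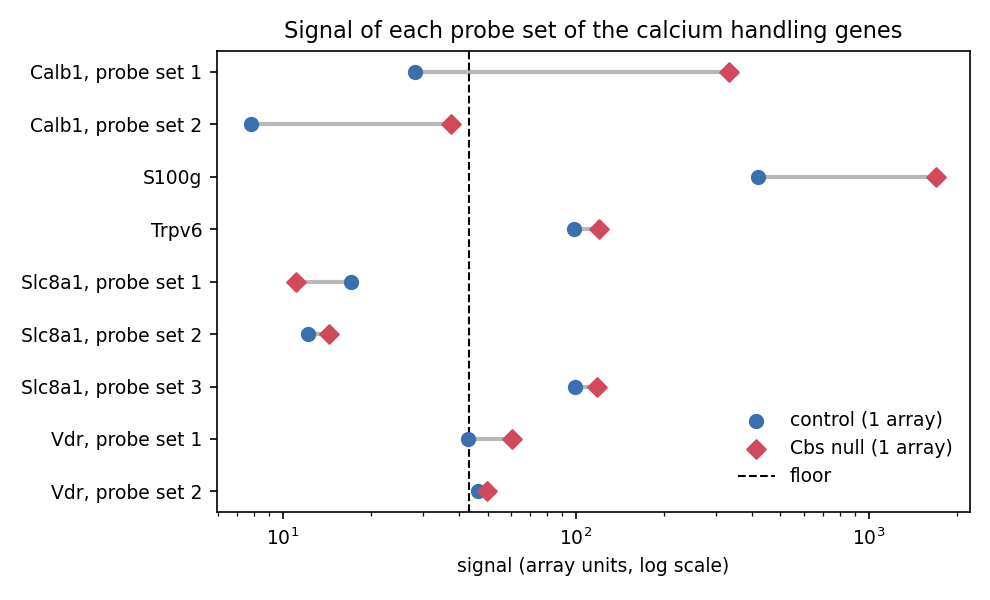
Signal of each of the 9 probe sets of Calb1, S100g, Trpv6, Slc8a1 and Vdr in array units on a log axis, with 1 point for the control array and 1 for the Cbs null array; the dashed line is the floor of 43.2. Calb1 crosses the floor from 28.3 to 333.9 in 1 of its 2 probe sets, and S100g lies above it at 419.3 and 1690.9. The signals of Trpv6, Slc8a1 and Vdr differ less between the arrays, with 1 Vdr probe set at 43.0 and 60.8.

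The channel that lets calcium in did not differ to a like extent. Trpv6 read 98.8 in control and 119.8 in Cbs null, a log2 ratio of 0.28 in a single probe set with a technical SD of 0.26 at this brightness. The readings were 2.29 and 2.77 times the floor, so it was weak but above the floor in both samples. Slc8a1, the exchanger that moves calcium out in return for sodium, read 99.7 and 118.1 in its brightest probe set, a log2 ratio of 0.24. The other 2 Slc8a1 probe sets read 17.1 and 11.1, and 12.2 and 14.4, all below the floor. The ratio of Slc8a1 therefore rests on 1 of its 3 probe sets.

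Vdr, the nuclear receptor through which vitamin D acts, was close to the floor in every reading. The probe set with the higher mean signal read 43.0 in control, just below the floor, and 60.8 in Cbs null, at least 1.41-fold higher. The other read 46.4 and 49.8, a log2 ratio of 0.10. Both went the same way, but by amounts that a signal so near the floor cannot separate from equal levels.

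By the 2-fold rule used for description, 2 of these 5 genes read higher in Cbs null and 0 lower, and all 5 exceeded the floor in 1 sample or both. Over all 8407 genes that did so, 0.797% were higher and 0.714% lower by 2-fold or more. Since the genes were chosen with this contrast known, nothing is read from the share. Calb1, and Vdr in the probe set that stands for it, passed the floor only through the Cbs null sample, so the direction of those bounds was fixed by that. The other Vdr probe set exceeded the floor in both samples, with the log2 ratio of 0.10 given above. S100g, Trpv6 and Slc8a1 were above the floor in both samples, and their log2 ratios were 2.01, 0.28 and 0.24.

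**Figure D2:**
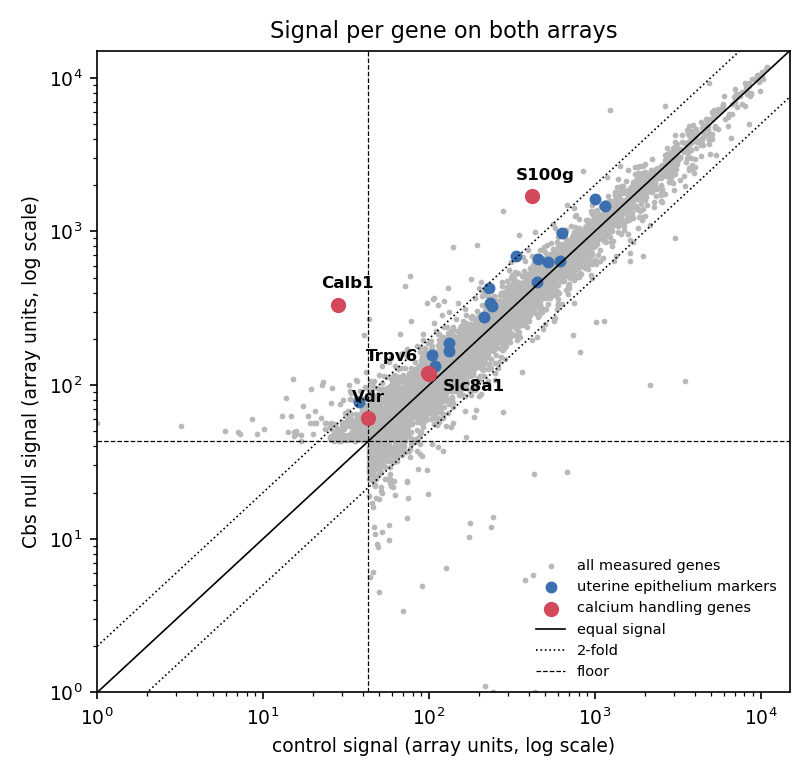
Signal in the Cbs null sample against signal in the control sample for the 8407 genes above the floor on at least 1 array, both in array units on log axes, with signals under 1 drawn at 1. Calb1 and S100g lie above the 2-fold line, Trpv6, Slc8a1 and Vdr lie less than 2-fold from the line of equal signal, and the uterine epithelium markers lie between that line and a little past 2-fold.

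The genes with log2 ratios nearest to that of S100g were Slc15a2, a peptide transporter gene, at 2.06, Cuedc1 at 1.81, the oviductal glycoprotein gene Ovgp1 at 1.78, the clock output gene Dbp at 1.77 and the methyltransferase gene Inmt at 2.27. Likeness here is a distance between ratios over 2 samples, so it is a weak measure. For Calb1, the one other gene below the floor in control with a bound of 4-fold or more was the keratin gene Krt15, which read 40.7 and 213.5. The genes beside the calbindins on their chromosomes were taken in the order of the mouse RefSeq table. Those above the floor on both arrays did not share the differences of the calbindins. Next to Calb1 on chromosome 4, Pip4p2 and Decr1 had log2 ratios of -0.17 and 0.25. Next to S100g on chromosome X, Ctps2 stood at 0.13, and Grpr was below the floor on both arrays and so gives no ratio. On chromosome 6, the gene 2 places from Trpv6 among those with a probe set was Pip, which encodes prolactin-induced protein. It read 13.8 in control and 82.2 in Cbs null, and was picked out after its value was seen.

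The wider calcium gene lists stood close to the rest of the array. They took in a list of steroid receptors and homeobox regulators, which are not calcium handling genes. In all they held 125 genes besides the 7, of which 98 had a probe set. Of 61 above the floor on both arrays, 25 were higher and 36 lower in the Cbs null sample, with a median log2 ratio of -0.05, against a median of 0.02 and 53.6% higher over all 7942 such genes. The lists were written by function, and 0 of their genes were at least 2-fold higher. Over all 8407 genes above the floor on at least 1 array, 0.797% were at least 2-fold higher and 0.714% lower. With shares so small, nothing is read from the count of 0. The gene of the lists at least 2-fold lower was Calb2, which encodes calretinin, the close relative of Calb1. Calb2 read 91.3 in control and 4.9 in Cbs null in its single probe set, lower by at least 2.11-fold. It passed the floor only through the control sample, so the direction of its bound was fixed by that, as for Calb1.

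Among the other calcium buffers and sensors, 12 genes were above the floor on both arrays and all 12 were lower, with a median of -0.20. Of all 7942 such genes on the array, 3671 were lower. Some of the 12 differed little, with Sri at -0.01 and S100a1 at -0.05. The dimmer probe set of Sri stood at 0.05, and those of Canx at -0.02 and 0.03. S100a6, an S100 protein like S100g, read 2550.6 and 1900.9, a log2 ratio of -0.42. The store protein gene Casq2 stood at -0.35, from signals of 62.2 and 48.7. Calr, the endoplasmic reticulum buffer calreticulin, was lower in all 3 of its probe sets, at -0.28 to -0.35. S100a8, an S100 protein of neutrophils, was below the floor in control and read 62.8 in Cbs null, so the direction of its bound was fixed by that. The S100 genes of this list above the floor on both arrays were thus all lower, while S100g, chosen with its value known, was higher.

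Of 11 entry channel genes above the floor on both arrays, 6 were higher and 5 lower, with a median of 0.02. Trpc1, a channel of the canonical TRP family, read 59.6 and 100.7, a log2 ratio of 0.76, and Trpv2, in the same family branch as Trpv6, stood at -0.51. The remaining pumps and exchangers had a median of 0.01 over 5 genes. Slc8b1, the mitochondrial exchanger, stood at 0.31 and Slc24a3, a potassium-dependent exchanger, at -0.25. The brightest probe set of Atp2a2, the ubiquitous pump that fills the endoplasmic reticulum, read 1514.2 and 1517.9. Atp2b2, the one Atp2b gene with a probe set here, read 20.7 and 68.2 in its brightest probe set, at least 1.58-fold higher, with its other 2 probe sets below the floor on both arrays.

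Calcium release genes had a median of -0.15 over 6 genes. Itpr2, an inositol trisphosphate receptor gene, read 98.5 and 188.5, a log2 ratio of 0.94. A probe set of Itpr2 with weaker signal, 84.1 and 139.1, gave 0.73, so this was the gene closest to 2-fold higher among those above the floor on both arrays in the calcium lists. Letm1, of the inner mitochondrial membrane, stood at -0.38. Among the known binding partners and regulators of TRPV6 and TRPV5, 8 of 9 were lower, with a median of -0.11. Over all 7942 genes above the floor on both arrays, 3671 were lower. Some of the 8 differed little, with Nedd4l at -0.04 and Slc9a3r2 at -0.02, and other Slc9a3r2 probe sets ran from -0.35 to 0.28. The kinase gene Sgk1 stood at -0.55 and Anxa2, whose protein binds the channels together with that of S100a10, at -0.33.

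**Figure D3:**
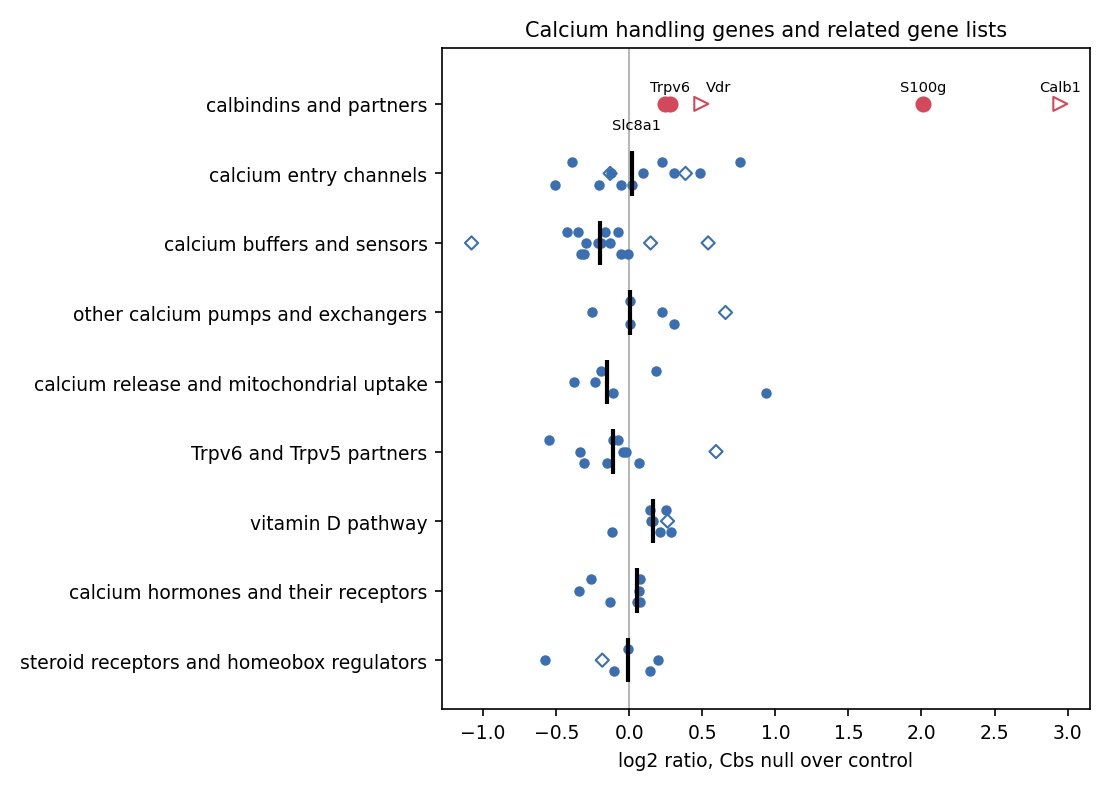
Log2 ratio of Cbs null over control for the 5 calcium handling genes with a probe set (top row) and for the genes of the 8 related lists. Filled points are genes above the floor on both arrays, open points are genes above it on 1 array (bounds), and black bars are list medians over the filled points; S100g at 2.01 and Calb1 at 2.95 or more lie to the right of every listed gene.

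Genes of the vitamin D pathway and of steroid signalling were listed as background to the calbindins. In the vitamin D list 6 of 7 genes were higher, with a median of 0.16 and a highest value of 0.28, that of Snw1, a coactivator of the receptor. Med1, a further coactivator, stood at 0.25 in its brightest probe set and at -0.43 in a dimmer one. Cyp24a1, the vitamin D degrading enzyme and a standard target of the receptor, was below the floor on both arrays, with readings of 9.1 and 0.8 in 1 probe set and 3.3 and 4.0 in the other. Among steroid receptors, Esr1 read 23.9 and 37.9, below the floor on both arrays, and Pgr read 49.1 and 36.8, so neither could be compared. Fkbp5, a glucocorticoid and progesterone responsive cochaperone gene, stood at -0.58 and -0.84 in its 2 probe sets. Hoxa10, a homeobox gene needed for implantation, stood at 0.19. The calcium hormone and receptor genes had a median of 0.05 over 7 genes, from Ramp3 at -0.34 to Stc1 at 0.08, and Ramp1 stood at -0.26.

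Markers of uterine epithelial cells read higher in the Cbs null sample, as did the calbindins and the macrophage markers given below. Of 18 uterine epithelium markers 17 had a probe set, 16 were above the floor on both arrays, and all 16 were higher in the Cbs null sample, with a median of 0.47 and a range from 0.06 to 1.05. Their signals summed to 6607 in control and to 9284 in Cbs null, 1.41-fold higher, and none was at 0. Cdh1, the epithelial cadherin, stood at 0.54 and Krt18 at 0.70. The log2 ratio of S100g was 1.54 above the marker median, and the bound of Calb1 was 2.48 above it. In whole tissue, more epithelial cells and more calbindin RNA per epithelial cell cannot be told apart, and the part of epithelial content in the calbindin difference was not tested.

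Luminal and glandular markers differed more as a list. Of 9 above the floor on both arrays 9 were higher, with a median of 0.92, and the summed signal of the list was 2.40-fold higher. Prss29, Prss28 and Spink1 were the brightest in Cbs null and weigh most in that sum. Foxa2 and Cxcl15 stood at 0.49 and 0.35, near the median of 0.47 of the uterine epithelium markers. Spink1, a trypsin inhibitor of uterine glands, had a log2 ratio of 2.33, above that of S100g, and the gland protease genes Prss28 and Prss29 stood at 1.30 and 0.92. Of 12 stratified epithelium markers with a probe set, 3 were above the floor on both arrays, the keratin genes Krt5, Krt13 and Krt14. They stood at 1.72, 1.67 and 1.18. A further 3 of that list were above the floor on 1 array, and 6, among them Trp63, were below it on both. Each gene was counted by the probe set that stands for it. Krt6a is among the 6, but a dimmer probe set of it read 8.2 in control and 84.0 in Cbs null, at least 1.94-fold higher. That probe set passed the floor only through the Cbs null sample, which fixed its direction. Of 6 oviduct epithelium markers with a probe set, Ovgp1 stood at 1.78 and Pax8 at 0.16, and Foxj1, Dnah5, Tekt1 and Rsph1, genes of ciliated cells, were below the floor on both arrays. Of 12 markers of intestinal and renal absorptive epithelium, the other main sites of the calbindins, 11 were below the floor on both arrays, and Umod read 57.6 in control and 12.3 in Cbs null.

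Other cell types moved both ways. All 11 smooth muscle markers were lower in the Cbs null sample, with a median of -0.32 and a summed signal of 49074 in control and 40021 in Cbs null. Slc8a1, which muscle also makes, stood at 0.24, within the technical SD of 0.26 for weak signals, and at 0.08 with its 3 probe sets averaged, so no direction is read from it. Of 10 uterine stroma markers 6 were higher, with a median of 0.10. All 9 macrophage markers above the floor on both arrays were higher, with a median of 0.49, beside 0.47 for the uterine epithelium markers. Endothelium markers divided 5 to 5. Of 10 decidual markers with a probe set, 4 were above the floor in control alone, among them Tdo2 and Prl8a2. The direction of those bounds was fixed by that. The 2 above the floor on both arrays, Bmp2 and Wnt4, were higher in Cbs null, at 0.02 and 0.48. The summed signal of the list was 1525 in control and 398 in Cbs null, with Tdo2 and Prl8a2 the brightest in control. The part of these markers in the calbindin values was not tested.

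**Figure D4:**
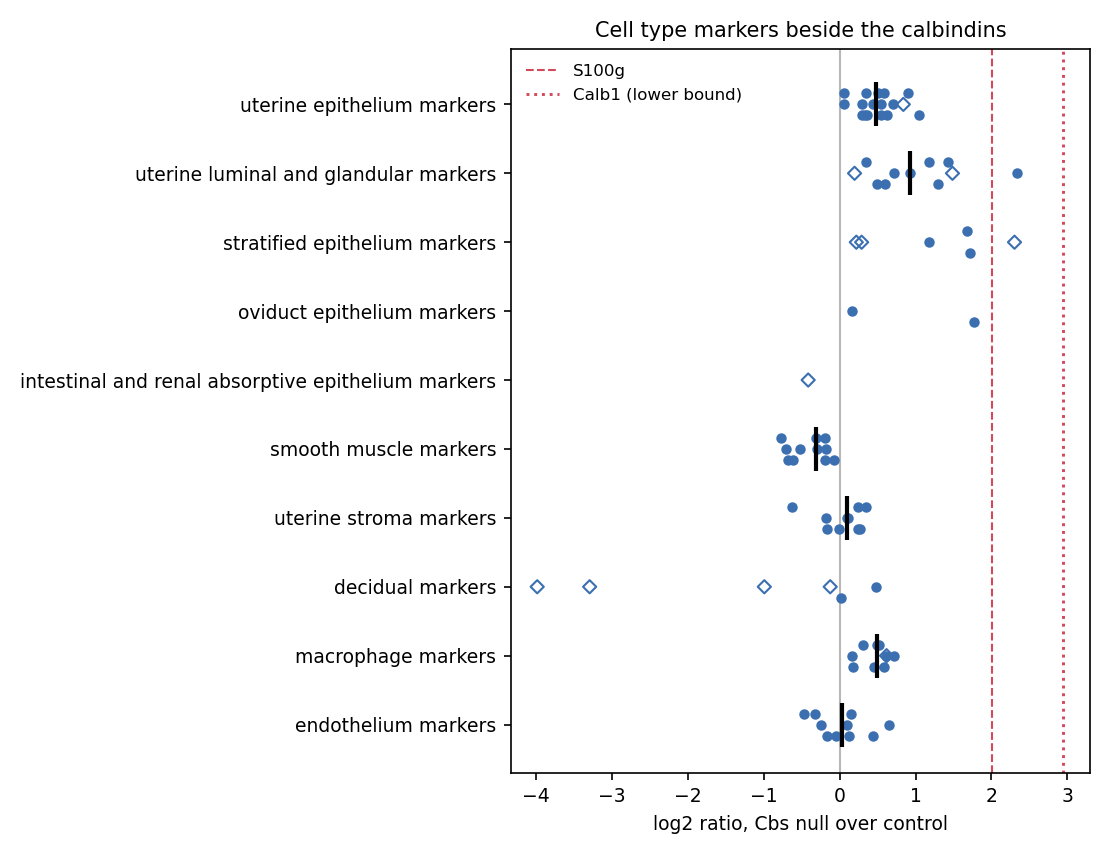
Log2 ratio of Cbs null over control for the markers of 10 cell types, with filled points for genes above the floor on both arrays, open points for genes above it on 1 array (bounds) and black bars for medians of at least 5 filled points. The dashed line is S100g at 2.01 and the dotted line the lower bound of Calb1 at 2.95; uterine epithelium markers lie from 0.06 to 1.05, and Spink1 at 2.33 lies right of S100g.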

How the data were processed

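Each deposited value is a linear intensity that summarises 1 probe set on 1 array. The submitters' processing notes list GCOS 1.4. How probes were summarised and to what target arrays were scaled is not given in the sources used here. Biotin-labelled cRNA came from 2 microg of total RNA, per the labels' protocols. The 2% trimmed means were 200.08 and 200.07, so values were used unscaled. Of 22690 probe sets, 64 are controls, 20380 have 1 gene symbol, 691 several and 1555 none, and only 1-symbol probe sets were used. Gene identifiers of 20351 matched the RefSeq table (GRCm38.p6), which gave names, neighbours and promoter windows. No promoter of Calb1 was used.

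The probe set whose mean log2 signal was highest stood for its gene, and other probe sets are given beside it. The members, gene lists and settings were chosen with earlier results of these data known. Named genes were the 7 members, Cbs, the calcium list genes at least 2-fold apart, the 2 largest ratios per calcium list where both readings exceeded the floor, the 5 genes nearest S100g in ratio, genes with bounds of at least 4-fold beside Calb1, and any of the cell type markers. Other genes named from the calcium lists, and the neighbours, were chosen after seeing their values. The technical SD came from 2757 genes with 2 probe sets. The ratio calculation was tested on simulated data. Python 3.11.15, pandas 2.3.3 and scipy 1.17.1 were used. The number of arrays limits the precision.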

Additional observations from a re-analysis of the deposited data

How the results depend on the processing

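With 1 array per group, no value has a replicate check, and signals near the floor have no reliable order. The 2-fold calls were recomputed after centring on the median, after quantile normalization, with floors at the 20th and 60th percentiles (signals of 10.9 and 120.34), with a pseudocount of 50, with the mean over probe sets, without _s_at and _x_at probe sets, and with thresholds of 1.5-fold and 3-fold. Under each of these, 2 genes were higher, 0 lower, and no log2 ratio changed sign. The floor decides the size of the Calb1 bound, whose log2 value of 2.95 became 3.56 with the floor at the 20th percentile and 1.47 at the 60th, 2.29 with the pseudocount and 1.48 with its probe sets averaged. With the floor at the 60th percentile, 2 of the 5 genes, in place of 5, were above it. Vdr went from 0.49 to 0.25 with the pseudocount. The S100g log2 ratio lay between 1.89 and 2.02 in every setting. No paired analysis was possible because each group has 1 array.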
